A study of Mus musculus with 44 samples.

Results

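Cytochrome c oxidase is the last enzyme of the mitochondrial respiratory chain, and the 10 genes described here encode its nuclear subunits that occur as tissue forms, together with a constant neighbour. They were chosen as a list of names and not by a rule on their values, but with earlier results of these data known. All 10 were found by their Ensembl identifiers among the 38202 genes of the count table. The list holds Cox4i1 and Cox4i2 for subunit IV, Cox6a1 and Cox6a2 for subunit VIa, Cox7a1, Cox7a2 and the related Cox7a2l for subunit VIIa, Cox8a and Cox8b for subunit VIII, and Cox6b1 for subunit VIb. The data are bulk RNA-Seq of liver and skeletal muscle from 22 male C57BL/6N mice, 11 wild-type littermates (WT) and 11 mice with a whole-body CRISPR/Cas9 deletion in Slc16a13 (KO). All of them, controls included, had been fed a high-fat diet for 15 weeks, were 20 weeks old and were killed after an overnight fast. Each mouse gave 1 liver and 1 muscle library, so there were 44 libraries in 4 groups of 11.

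The complex is built around mitochondrially encoded catalytic subunits, and the small nuclear subunits surround and tune that core. For subunits VIa, VIIa and VIII, the mouse has a ubiquitous form, also called the liver form, and a form made mainly in heart and skeletal muscle. Subunit IV has a ubiquitous form, Cox4i1, and an alternate form, Cox4i2, which is known from lung and from vascular cells rather than from muscle fibres.

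The libraries held between 20150712 and 35218243 reads in genes. Slc16a13 itself, the deleted lactate transporter gene, had 99 to 302 reads in the WT livers and 0 to 8 in the KO livers. In muscle it had only 4 to 22 reads in WT and 11 to 40 in KO. Such low counts, not lower in KO, do not check the label, so those are called the muscle libraries labelled KO. Hepatocyte markers summed to at least 63900 RPKM (the authors' unit, reads scaled for gene length and depth) in every liver, and myofibre markers to at least 100000 RPKM in every muscle. In 5 of the 11 KO livers, from mice 532, 583, 587, 602 and 611, short genes had gained on long genes relative to every WT liver. Its measure, the slope of a library's log2 read counts scaled for depth, relative to all livers against log2 gene length, ran from -0.53 to 0.037 in these 5 and from 0.04 to 0.096 in WT. In 2 muscle libraries labelled KO, from mice 561 and 611, adipocyte markers summed to 699 and 510 RPKM, against at most 260 in WT. In the muscle libraries labelled KO of mice 602 and 561, reads of genes known from testis were present, as described below with the testis-type subunits. Values that change by much without these libraries are given both ways beside the result.

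The paired forms are separate genes with clearly different sequences, which decides whether reads can be assigned to them. Within the coding sequences of the GENCODE M21 transcripts (build GRCm38), Cox8b and Cox8a were identical at 58.2% of 201 aligned bases and Cox6a2 and Cox6a1 at 66.6% of 290. Identity was 65.8% for Cox7a1 with Cox7a2, 69.8% for Cox4i2 with Cox4i1 and 68.8% for Cox7a2l with Cox7a2. No stretch identical between the members of any of these pairs was longer than 14 bases, against a read length of 85 bases. The coding sequences of the subunit VIII and VIa pairs are printed 5′ to 3′, because these pairs exchanged almost completely between the tissues, whole except for Cox6a1, which is given from position 46 to 339. Capitals mark bases that differ from the partner or have no counterpart in it.
Cox8b: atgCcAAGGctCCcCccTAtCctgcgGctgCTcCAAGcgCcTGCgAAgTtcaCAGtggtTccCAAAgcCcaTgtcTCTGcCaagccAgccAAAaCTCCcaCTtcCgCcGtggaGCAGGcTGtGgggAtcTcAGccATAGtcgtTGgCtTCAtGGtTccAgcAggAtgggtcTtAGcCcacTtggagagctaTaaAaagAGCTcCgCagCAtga
Cox8a: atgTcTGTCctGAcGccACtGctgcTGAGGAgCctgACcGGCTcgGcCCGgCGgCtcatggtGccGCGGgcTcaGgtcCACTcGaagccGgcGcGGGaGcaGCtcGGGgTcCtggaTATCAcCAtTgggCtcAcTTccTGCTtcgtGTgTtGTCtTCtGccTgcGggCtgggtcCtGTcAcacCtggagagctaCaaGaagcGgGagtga
Cox6a2: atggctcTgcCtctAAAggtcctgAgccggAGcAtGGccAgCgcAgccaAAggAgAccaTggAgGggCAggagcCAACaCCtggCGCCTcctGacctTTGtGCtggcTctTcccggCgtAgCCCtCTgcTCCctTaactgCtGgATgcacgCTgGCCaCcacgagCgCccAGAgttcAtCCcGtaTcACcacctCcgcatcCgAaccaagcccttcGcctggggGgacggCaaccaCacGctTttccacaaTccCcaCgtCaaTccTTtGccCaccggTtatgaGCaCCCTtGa
Cox6a1: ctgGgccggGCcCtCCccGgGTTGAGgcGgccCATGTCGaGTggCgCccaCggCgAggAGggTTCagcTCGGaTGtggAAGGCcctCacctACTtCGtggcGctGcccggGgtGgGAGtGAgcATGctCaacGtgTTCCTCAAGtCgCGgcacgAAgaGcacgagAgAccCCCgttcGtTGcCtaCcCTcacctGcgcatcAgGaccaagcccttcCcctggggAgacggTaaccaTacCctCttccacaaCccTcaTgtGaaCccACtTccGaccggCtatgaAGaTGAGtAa
Cox8b lies on the minus strand of chromosome 7 (chr7:140898945-140900446, GRCm38) with 2 exons, and Cox8a on the minus strand of chromosome 19 (chr19:7215153-7217616) with 2 exons. Cox6a2 lies on the minus strand of chromosome 7 (chr7:128205435-128206387) with 3 exons and Cox6a1 on the minus strand of chromosome 5 (chr5:115345642-115348981) with 3. Of the others, Cox7a1 (chr7:30184144-30186078, plus strand) and Cox6b1 (chr7:30616861-30626151, minus) also lie on chromosome 7, Cox7a2 on chromosome 9 (chr9:79755361-79759878, minus), Cox7a2l on 17 (chr17:83501918-83517330, minus), Cox4i1 on 8 (chr8:120668222-120674207, plus) and Cox4i2 on 2 (chr2:152754173-152765037, plus). Of the windows of 85 bases along each transcript, 13.4% in Cox7a2l were also found in the processed pseudogene Gm6969 and 4.52% in Cox6a1 were found in a pseudogene, while the other 8 genes had none in another annotated transcript. Gm6969 had at most 35 reads in any library. Cox4i1 overlaps the gene model Gm20388 on the same strand, which had 911 to 3077 reads of its own per library, and the length implied by the RPKM and count of Cox4i1 varied from 613 to 670 bases between libraries. The split of reads between Cox4i1 and Gm20388 is therefore uncertain.

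The exchange of forms between the tissues was close to complete for subunits VIa and VIII, partial for VIIa and almost absent for IV. In the WT mice the muscle form Cox6a2 made up 97.3% ± 0.536 (SD, n = 11) of the summed Cox6a RPKM in muscle and 0.00915% ± 0.0106 (SD, n = 11) in liver. Cox8b made up 96.5% ± 0.485 of the Cox8 sum in muscle and 0.113% ± 0.104 in liver (SD, n = 11 each). Cox7a1 made up 75.5% ± 0.93 of the sum of Cox7a1 and Cox7a2 in muscle and 1.36% ± 0.374 in liver (SD, n = 11 each). Cox4i2 reached 0.267% ± 0.0816 of subunit IV in muscle and 0.0143% ± 0.00707 in liver (SD, n = 11 each). None of the 4 shares overlapped between WT liver and WT muscle, and each difference had p = 1e-05 in a two-sided permutation test with 100000 resamples, the smallest that test can give (adjusted p = 1e-05 over 4 pairs). That test does not use that both tissues came from the same mice. A sign-flip test of the differences within mice gave p = 0.000977 for each pair, also its smallest value. A share is taken within 1 library, so it does not depend on depth or on scaling between tissues. It does depend on dividing by gene length, since the WT muscle share of Cox7a1 was 59.8% by read count alone.

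**Figure D1:**
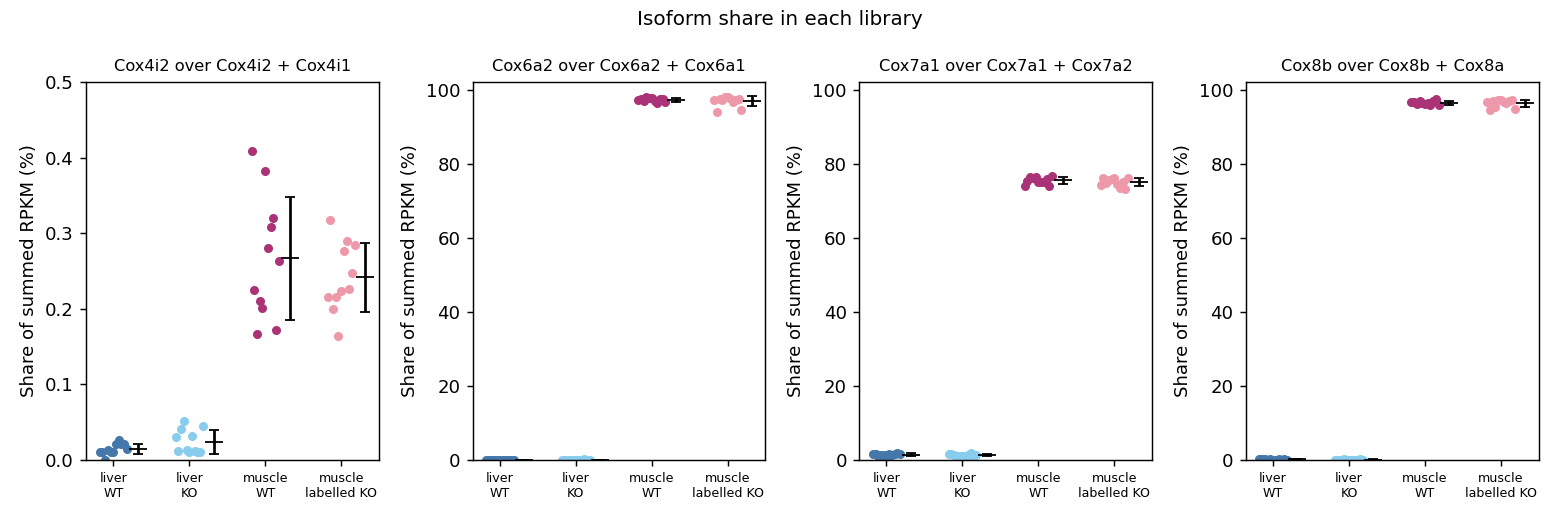
Share of the muscle-type or alternate form in the summed RPKM of its pair, in percent, for each of the 44 libraries (points) with the mean and SD of each group of 11 (black bars). The Cox6a2 and Cox8b shares lie above 93% in every muscle, Cox7a1 lies between 73.2% and 76.7%, and the Cox4i2 panel has its own axis because no library exceeds 0.409%.

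The ubiquitous forms set the level in liver. Cox4i1, which takes part in the first steps of assembly around the catalytic core, had 483, 521 and 572 RPKM as the lowest, median and highest value of the WT livers. Cox6a1, the liver form of subunit VIa, ran from 255 through a median of 298 to 334 RPKM, and Cox6b1, which lies at the contact of the monomers in the dimeric enzyme, from 300 through 325 to 403 RPKM. Cox6b1 exceeded Cox6a1 in all 11 WT livers although their ranges overlapped. Cox8a, the liver form of the smallest subunit, had 154, 173 and 192 RPKM, and Cox7a2, the liver form of VIIa, had 129, 142 and 176. Cox7a2l, also named Scaf1, was lower, with 42.6, 47.7 and 53.3 RPKM. Below these 6 the levels dropped by an order of magnitude or more: Cox7a1 had 0.643 to 2.74 RPKM in the WT livers with a median of 2.09, and its range did not meet that of Cox7a2l. Cox8b ran from 0 to 0.588 RPKM, which was 0 to 5 reads, and Cox4i2 from 0 to 0.127 RPKM, which was 0 to 2 reads. Cox6a2 had 5 reads in all 11 WT livers together. These 3 lowest genes had overlapping ranges and cannot be ordered.

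In WT muscle the order was different. Cox6a2 led with 614, 712 and 891 RPKM and was above Cox4i1 in 10 of 11 muscles. Cox4i1 had 487, 618 and 741 RPKM and Cox8b 520, 617 and 675, and each of these was the higher of both in about as many libraries as the other, with Cox4i1 ahead in 6 of 11. Cox6b1 followed with 372, 461 and 545 RPKM and Cox7a1 with 297, 376 and 469. Cox7a2 kept 97.5, 122 and 143 RPKM and Cox7a2l 42.6, 50.9 and 54.2, and neither range met that of its neighbours. Cox8a fell to 17.2, 21.7 and 28.8 RPKM and Cox6a1 to 15.8, 19.4 and 29.4, with overlapping ranges. Cox4i2 was lowest with 0.998, 1.75 and 2.46 RPKM, from 20 to 48 reads per library. Its level can be set beside pericyte and smooth muscle markers, which summed to 118 to 171 RPKM in these muscles, and the part of such cells in the Cox4i2 reads was not tested. In bulk tissue, fewer cells of a type and less RNA per cell cannot be told apart.

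**Figure D2:**
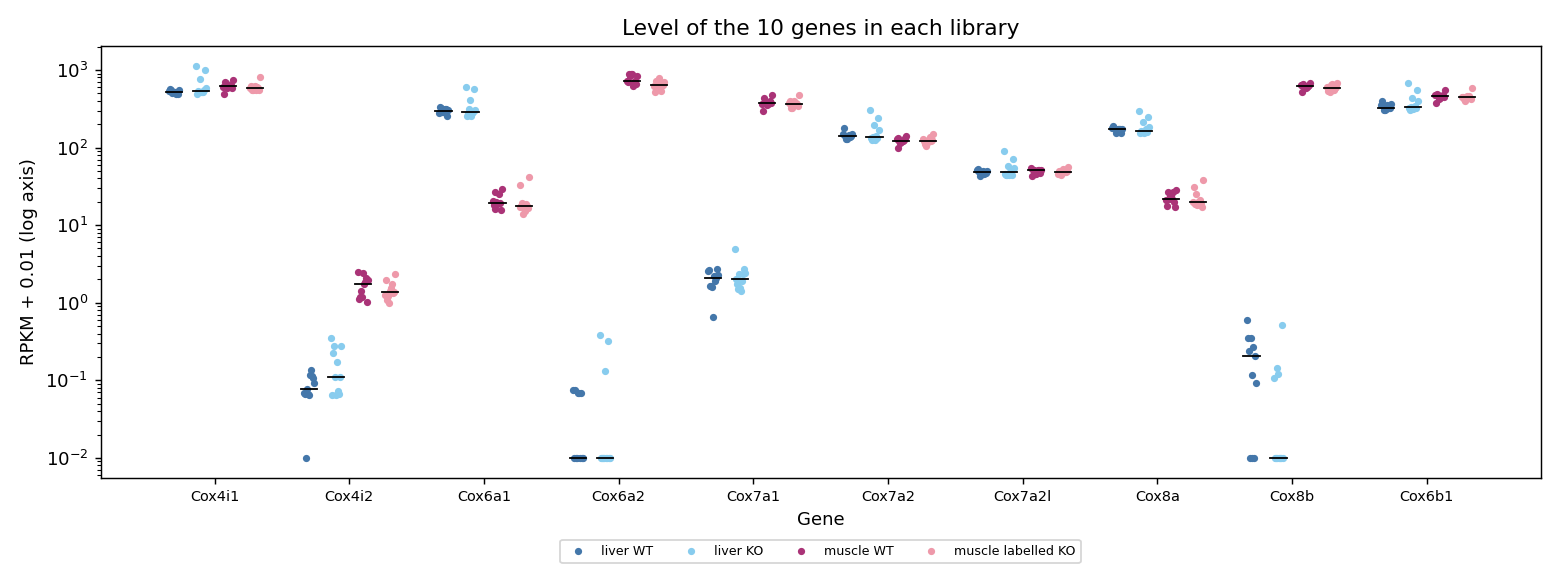
RPKM plus 0.01 on a log axis for the 10 genes in each of the 44 libraries (points), with the median of each group of 11 (lines). Cox4i1, Cox7a2, Cox7a2l and Cox6b1 lie at like levels in liver and muscle, Cox6a1 and Cox8a drop from liver to muscle, and Cox6a2, Cox7a1 and Cox8b rise from under 5 RPKM in every liver to between 297 and 891 in every WT muscle.

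Tested gene by gene with edgeR's quasi-likelihood test across all genes (Benjamini-Hochberg adjusted p under 0.05), 9 of the 10 genes differed between muscle and liver of the WT mice, 6 higher and 3 lower in muscle. The background was broad, since 91.0% of the 13907 genes tested passed in this comparison, 45.5% higher and 45.5% lower, so the size of a difference says more than its call. A log2 difference over 2 was reached upward by 15.2% and downward by 17.8% of all genes, and by 4 and 2 of the 10. Of those upward, Cox4i2, Cox6a2 and Cox8b had 15, 5 and 19 reads in all WT livers and passed the filter only through muscle. Their upward direction was thereby fixed in advance, and the upward count is no result beyond the fold changes. From the summed reads, Cox6a2 was 27900-fold higher in muscle than in liver (95% interval 11900 to 85800), Cox8b 3290-fold (2100 to 5460), Cox7a1 191-fold (167 to 221) and Cox4i2 22.3-fold (13.3 to 40.2). These intervals cover counting error only. In the fit, Cox6a1 was lower in muscle by a log2 difference of -3.87 ± 0.08 (SE, adjusted p = 5.8e-24) and Cox8a by -2.96 ± 0.07 (adjusted p = 1.4e-23). The genes that do not exchange differed little, with log2 differences of 0.42 ± 0.05 for Cox6b1 (adjusted p = 6.4e-09), 0.23 ± 0.05 for Cox4i1 (adjusted p = 9.9e-05), -0.24 ± 0.05 for Cox7a2 (adjusted p = 4.3e-05) and 0.01 ± 0.04 for Cox7a2l (adjusted p = 0.7, SE in each case). The p-values of these fits measure the spread between mice.

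Within a library, the levels of the subunits can be set against each other per length. Relative to Cox4i1, the sum of both Cox6a forms was 0.569 ± 0.0294 in WT liver and 1.26 ± 0.163 in WT muscle (SD, n = 11 each). The Cox7a1 and Cox7a2 sum was 0.277 ± 0.0177 and 0.813 ± 0.0335, and the Cox8 sum was 0.329 ± 0.0146 and 1.04 ± 0.0631, in the same order. All 3 ranges were separate between the tissues. Cox6b1, with no exchange, went only from 0.644 ± 0.0348 to 0.742 ± 0.0313, and Cox7a2l from 0.0912 ± 0.00357 to 0.0798 ± 0.00609. Relative to Cox4i1, these paired subunits had more transcript in muscle than in liver, and Cox6b1 and Cox7a2l differed less between the tissues. Further structural genes of the enzyme, given below, also rose in muscle beyond the log2 difference of 0.23 of Cox4i1. Theirs ran from 0.4 for Ndufa4 to 1.13 for Cox5a in the fit, so such a rise was not particular to the paired subunits. Each value shares the Cox4i1 level as its divisor, which is uncertain for the reason given above.

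The 11 KO mice gave the tissue comparison in libraries not used for WT. Cox6a2 made up 96.9% ± 1.39 of its pair in the muscles labelled KO and 0.0192% ± 0.0361 in the KO livers (SD, n = 11 each). The corresponding shares were 96.3% ± 1.02 and 0.0353% ± 0.0628 for Cox8b, 75.0% ± 1.09 and 1.31% ± 0.216 for Cox7a1, and 0.242% ± 0.0456 and 0.0241% ± 0.0159 for Cox4i2. Each pair again had p = 1e-05 (permutation test, adjusted p = 1e-05), which was 7e-05 without the 5 livers and 2e-05 without either pair of muscles. The sign-flip test within mice gave p = 0.000977 for each pair. In the muscles labelled KO the lowest, median and highest levels were 544, 588 and 822 RPKM for Cox4i1, 516, 582 and 683 for Cox8b, 399, 445 and 580 for Cox6b1 and 325, 363 and 481 for Cox7a1. Cox7a2 had 105, 123 and 151 RPKM, Cox7a2l 44.5, 48.6 and 56.9, and Cox4i2 0.983, 1.35 and 2.34. The order of the 10 medians was that of WT muscle. In the KO livers Cox6b1 had 308, 334 and 687 RPKM, Cox6a1 251, 288 and 611, Cox8a 155, 163 and 294, and Cox7a2 126, 136 and 309. Cox7a2l had 43.6, 48.7 and 89.3 and Cox7a1 1.42, 2.0 and 4.99, while Cox4i2, Cox6a2 and Cox8b stayed at or under 0.502 RPKM. The order of the 7 higher medians was that of WT liver, and the KO ranges were wider upward. By edgeR 4 genes were called higher in muscle and 4 lower, where 86.7% of 13981 genes passed, 42.8% higher and 43.9% lower. The 4 higher were those with a muscle-type or alternate form, and Cox6a1, Cox8a and Cox7a2 were lower, as they were in WT. Of the higher genes, Cox4i2, Cox6a2 and Cox8b had 32, 14 and 8 reads in all KO livers. They again passed the filter only through muscle, which fixed their direction. Cox7a2 was at -0.58 ± 0.15 (SE, adjusted p = 0.0013) with all libraries and at -0.19 (adjusted p = 0.002) without the 5 KO livers of low slope, and Cox6a1 and Cox8a went from -4.23 and -3.2 to -3.84 and -2.93. Cox7a2l was the fourth lower gene at -0.28 ± 0.12 (SE, adjusted p = 0.035), but without the 5 KO livers of low slope its difference was -0.0093 (adjusted p = 0.86), and with mouse as replicate block it was -0.23 (adjusted p = 0.078). Cox6b1 had 0.05 ± 0.14 (adjusted p = 0.75) with all libraries and 0.38 (adjusted p = 2.1e-06) without those livers. Cox4i1 had -0.22 ± 0.15 (adjusted p = 0.16) with all libraries and 0.12 (adjusted p = 0.099) without them.

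The question the study asked of these tissues was whether loss of Slc16a13 changes them, and for the isoform makeup no share passed the test. In liver the KO minus WT difference in share was 0.00979 percentage points for Cox4i2 (95% interval -0.0015 to 0.0211), 0.0101 for Cox6a2 (-0.0147 to 0.0349), -0.0458 for Cox7a1 (-0.322 to 0.23) and -0.0774 for Cox8b (-0.155 to 0.000153). The smallest unadjusted p of these was 0.0458 for Cox8b, with an adjusted p = 0.317 over the 8 comparisons of 4 pairs and 2 tissues by permutation test. That share rests on 19 reads of Cox8b in all WT livers and 8 in all KO livers, and myofibre markers summed to 6.34 to 46.0 RPKM in the WT livers and 4.69 to 21.6 in the KO livers. Their part in it was not tested. Without the 5 livers of low slope the Cox8b difference was -0.0985 (permutation p = 0.0442, adjusted p = 0.236), that of Cox4i2 0.0117 (adjusted p = 0.236), that of Cox6a2 0.00872 (adjusted p = 0.813) and that of Cox7a1 -0.0191 (adjusted p = 0.917). In muscle the difference was -0.446 percentage points for Cox6a2 (-1.42 to 0.523), -0.474 for Cox7a1 (-1.38 to 0.431), -0.156 for Cox8b (-0.884 to 0.572) and -0.0253 for Cox4i2 (-0.0852 to 0.0346). Adjusted p in muscle ran from 0.541 to 0.739. The difference between tissues of the genotype difference had adjusted p from 0.481 to 0.822 over the 4 pairs (permutation test within each tissue). Without the 2 muscles of high adipocyte markers it turned from -0.456 to 0.14 percentage points for Cox6a2 and from -0.0788 to 0.309 for Cox8b, with adjusted p = 0.535 and 0.287.

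In liver, 7 of the 10 genes passed the filter on low counts, and Cox4i2, Cox6a2 and Cox8b did not. All 7 had higher fitted levels in KO, with a median log2 difference of 0.3 against -0.01 over all genes, but 0 of 7 passed the adjusted test, as against 0.0231% of the 13005 genes tested. At an unadjusted p under 0.05 there were 3 of 7, all higher, beside 12.9% of all genes, or 9.78% counting those that were higher. The count depended on the method, with 5 of 7 by DESeq2, 1 by limma-voom and 1 with scaling by library size alone. These were Cox4i1, with 489, 532 and 1140 RPKM as the lowest, median and highest KO liver and a log2 difference of 0.37 ± 0.14 (SE, edgeR p = 0.014, adjusted p = 0.38), Cox6b1 at 0.31 ± 0.13 (p = 0.031, adjusted p = 0.38) and Cox7a2l at 0.25 ± 0.12 (p = 0.038, adjusted p = 0.38). For Cox4i1 the genotype medians lay close together, and the KO range reached far above the WT range. For Cox4i1 4 KO livers exceeded every WT liver, and all 4 were among the 5 of low slope, whose Cox4i1 ranged from 524 to 1140 RPKM. The other 6 KO livers had a mean of 523 RPKM ± 23 (SD, n = 6), beside 524 ± 26.6 in WT (SD, n = 11). The same held for Cox7a2l with 4 and for Cox6a1, Cox7a2, Cox8a and Cox6b1 with 3 livers each, since 0 of the other 6 KO livers exceeded the WT range for any of these genes. Without the 5 livers, 6 of 7 genes were lower in KO, with a median of -0.07 and adjusted p = 1 for each. Over all genes 50.2% were then higher. With gene length removed from every library the median was 0.04, and 5 genes were higher and 2 lower. Over all genes the median was then 0.03, with 57.7% higher. Cox4i1 stayed at 0.12 ± 0.05 (SE, edgeR p = 0.027, adjusted p = 0.53) under this setting, the only one of the 7 with an unadjusted p under 0.05.

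**Figure D3:**
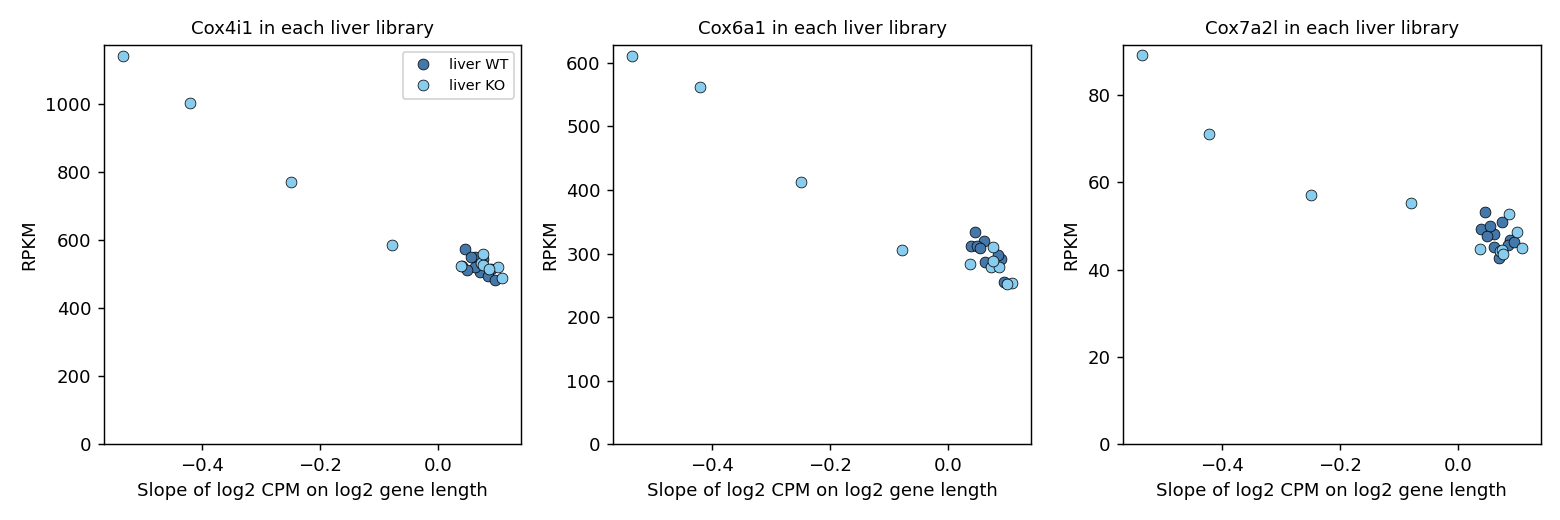
RPKM of Cox4i1, Cox6a1 and Cox7a2l in each of the 22 liver libraries against the library's length slope as defined above (lower means that short genes gained on long ones). The KO livers with the highest RPKM are those with the lowest slopes, and the other KO livers lie within the WT range, except that 2 lie just below it for Cox6a1.

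All 10 genes passed the filter in muscle, and all 10 had lower fitted levels in the libraries labelled KO, with a median log2 difference of -0.05 against 0.01 over all genes. None passed the adjusted test, as against 0.00754% of the 13266 genes tested, and 1 passed at an unadjusted p under 0.05, beside 8.64% of all genes, or 4.88% counting those that were lower. That gene was Cox6a2, the muscle form with the highest level, with 513, 647 and 797 RPKM in the libraries labelled KO beside 614, 712 and 891 in WT. Its log2 difference was -0.24 ± 0.09 (SE, edgeR p = 0.01, adjusted p = 0.51), and 3 libraries labelled KO lay below every WT muscle. The other 9 genes ranged from -0.19 ± 0.17 for Cox4i2 to -0.01 ± 0.05 for Cox7a2. Cox7a2 turned to 0.0042 under scaling by library size alone, so the common direction did not hold under that scaling. Slc16a13 in these libraries was low and not lower than in WT, with medians of 0.27 and 0.261 RPKM. It does not check the label, which bears on every direction given here. The interaction of genotype and tissue passed for 0 of 10 genes after adjustment, beside 0.00678% of 14739, and for 6 at an unadjusted p under 0.05, all of them lower, beside 16.2% of all genes, or 10% counting those that were lower. Of these 6, Cox4i2 was at -1.26 ± 0.4 (SE, edgeR p = 0.0035) and Cox6a2 at -1.56 ± 0.74 (p = 0.042). Both had failed the filter in liver alone and entered this fit through muscle. They had 15 and 5 reads in all WT livers and 32 and 14 in all KO livers, so their part of the count rests on near-empty liver values. The interaction fit does not use that both tissues came from the same mice, and with mouse as replicate block 2 were lower. By limma-voom 3 were lower and 1 was higher, and with scaling by library size alone 3 were lower. Without the 5 livers of low slope 0 were lower and 1 was higher, without the muscles of high adipocyte markers 7 were lower, and without those with testis-type reads 5 were.

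**Figure D4:**
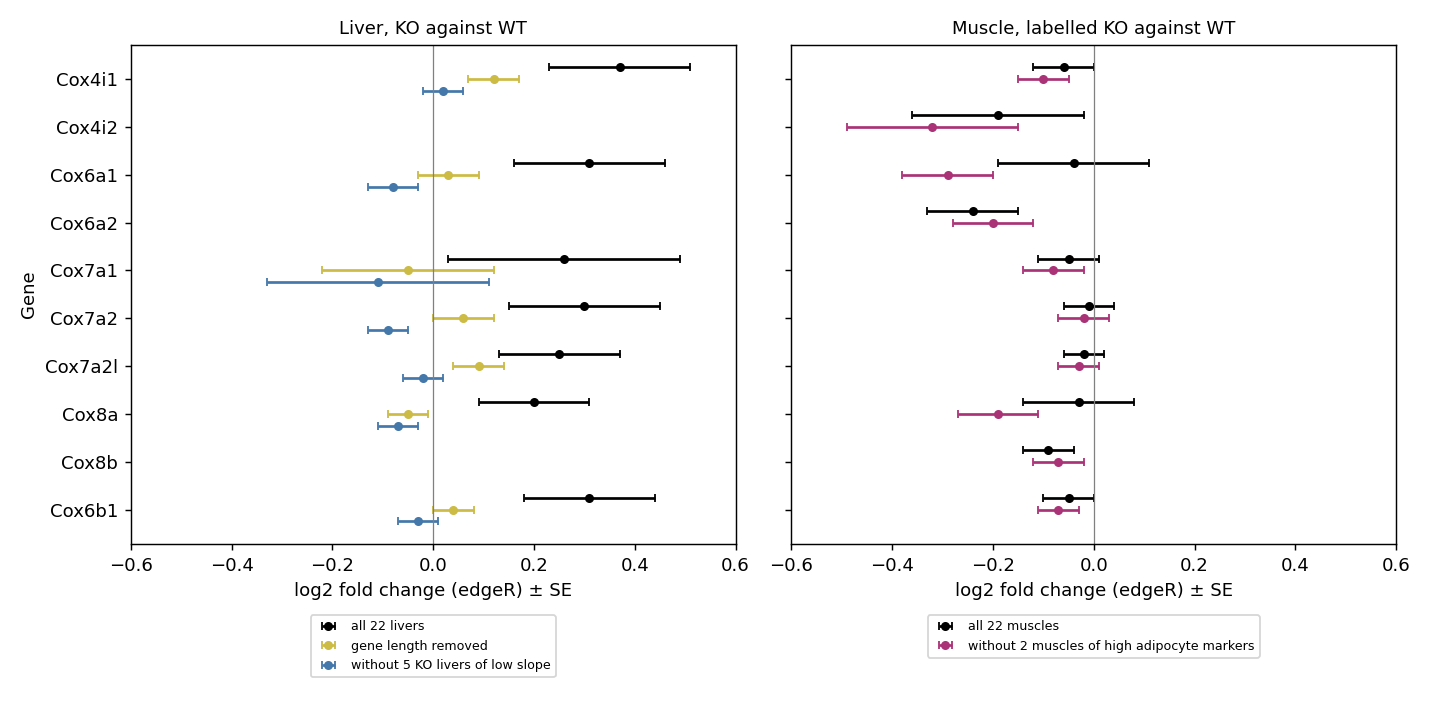
Log2 fold change of KO over WT with its standard error for each gene that passed the filter, in liver (left, 7 genes) and muscle (right, 10 genes), black with all libraries and coloured with gene length removed or libraries left out. In liver all 7 points lie above 0 with all libraries and close to 0, most of them below it, without the 5 KO livers of low slope. In muscle all 10 lie at or below 0, and Cox6a1 and Cox8a move to -0.29 and -0.19 without the 2 muscles of high adipocyte markers.

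Between WT muscles the coefficient of variation was 21.3% for Cox6a1 and 16.4% for Cox8a, beside 13.5% for Cox6a2 and 6.9% for Cox8b, so the liver forms of VIa and VIII varied more than their partners. For subunit VIIa the order was the other way, with 9.46% for Cox7a2 and 11.6% for Cox7a1, and none of these differences was tested. The muscle libraries labelled KO of mice 561 and 611 had 33.2 and 41.2 RPKM of Cox6a1, beside at most 29.4 in WT, and 31 and 38.5 RPKM of Cox8a, beside at most 28.8. They also had the lowest Cox6a2 shares of all muscles, 93.9% and 94.5%, and the lowest Cox8b shares, 94.5% and 94.7%. The adipocyte marker sums of these libraries, given above, were the highest of the muscles, with all 6 markers detected in both muscle groups, and their hepatocyte marker sums of 33.5 and 21.4 RPKM lay above the WT maximum of 7.94. Pericyte and smooth muscle markers were also highest in these 2 muscles, at 195 and 198 RPKM against a WT maximum of 171. The part of any of these cells in the values was not tested. Without both libraries the KO minus WT difference in muscle turned from -0.446 to 0.15 percentage points for the Cox6a2 share and from -0.156 to 0.232 for the Cox8b share, with adjusted p = 0.575 and 0.541 (permutation test). For single genes it then became -0.29 ± 0.09 for Cox6a1 (edgeR p = 0.0046, adjusted p = 0.39) and -0.19 ± 0.08 for Cox8a (p = 0.034, adjusted p = 0.45). In the 11 WT muscles the adipocyte marker sum and Cox6a1, both as log2 RPKM, had Pearson's r = 0.83 (permutation p = 0.0012, adjusted p = 0.0083 over 40 relations) and Spearman's rho = 0.79 (adjusted p = 0.055). The other r values against marker sums, here and below, were also taken on log2 RPKM. Without the 2 muscles farthest from the median r was 0.74. For Cox8a in the same muscles r was 0.47 (adjusted p = 0.24) and rho 0.47 (adjusted p = 0.28, permutation), and for Cox6a2 r was -0.055 (adjusted p = 0.87). In the muscles labelled KO mice 561 and 611 stood apart from the rest in the adipocyte sum, so no pooled r is given there.

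The members' levels were also set against fibre type markers. Slow and oxidative fibre markers, such as Myh7 and Myl2, summed to 308 to 2530 RPKM in the 11 WT muscles. Against this sum r was 0.94 for Cox7a1, 0.9 for Cox4i1, 0.9 for Cox6b1 and 0.86 for Cox7a2, with adjusted permutation p between 0.0035 and 0.0083 for r. Spearman's rho was 0.77, 0.78, 0.77 and 0.68, with adjusted p from 0.055 to 0.1, so that the rank test did not pass. Without the 2 muscles farthest from the median r was 0.85, 0.7, 0.68 and 0.56 in the same order. Cox6a2 had r = 0.31 (adjusted p = 0.52) and Cox8b r = 0.72 (adjusted p = 0.042), which became 0.11 without 2 muscles. Cox6a1, Cox8a and Cox7a2l had r of 0.68, 0.7 and 0.68 (adjusted p from 0.042 to 0.044), which became 0.63, 0.4 and 0.37, and Cox4i2 had 0.23 (adjusted p = 0.6). The 2 highest WT sums, 2480 and 2531 RPKM, stood above the other 9. In the muscles labelled KO, where mouse 611 stood apart with a sum of 2899 RPKM, r was 0.87 for Cox7a1 (0.5 without 2 muscles), 0.86 for Cox4i1 (0.28), 0.89 for Cox6b1 (0.53) and 0.76 for Cox7a2 (0.36). It was 0.87 for Cox4i2 (0.75 without 2 muscles, permutation adjusted p = 0.0035 with all), -0.21 for Cox6a2 (-0.68) and 0.23 for Cox8b (-0.57). The libraries of a tissue share the normalization, and the difference between these r values was not tested.

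**Figure D5:**
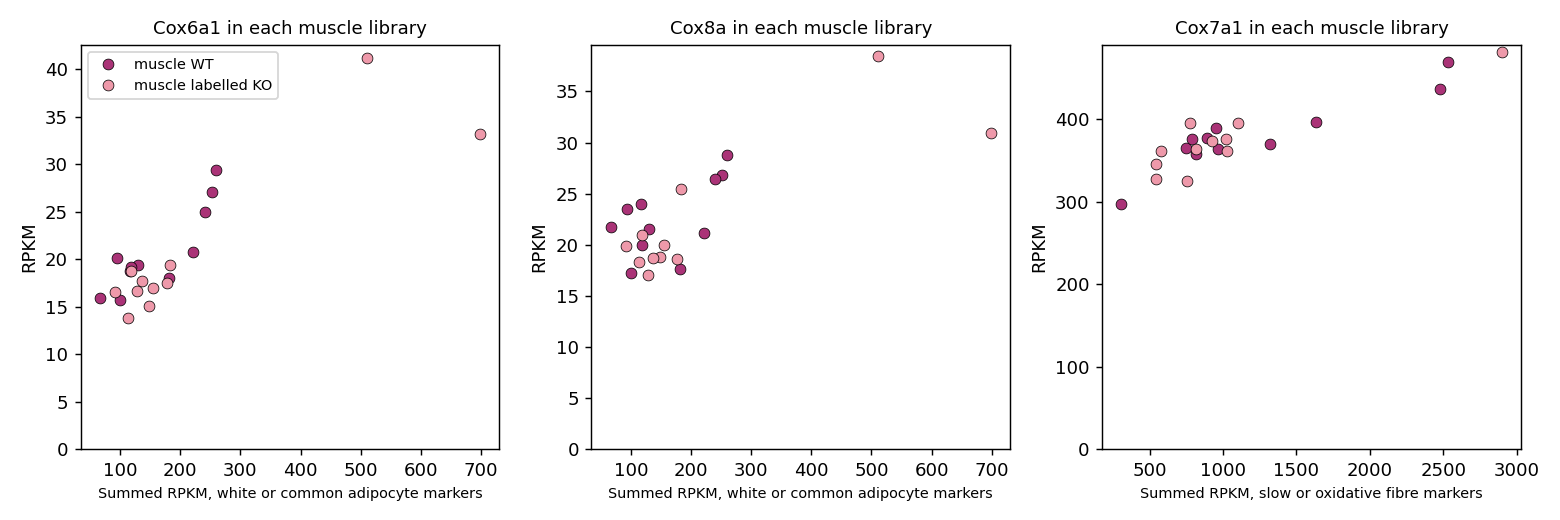
RPKM of Cox6a1 and Cox8a against the summed RPKM of 6 adipocyte markers, and of Cox7a1 against the summed RPKM of 9 slow or oxidative fibre markers, for each of the 22 muscle libraries. The libraries with adipocyte sums of 510 and 699 have the highest Cox6a1 and Cox8a, and Cox7a1 is highest in the 3 libraries with the largest slow fibre sums.

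The genes whose deviations from the group means were most like those of each member were also listed. They were ranked by Pearson's r of log2 counts scaled for depth over the 22 muscle libraries among 13266 genes, as a description. For Cox7a1 they were Atp5g3 (r = 0.973), Idh3g (0.966) and Atp5b (0.966), for Cox4i1 Ndufv1 (0.963), Mdh2 (0.951) and Uqcrc1 (0.94). These encode parts of the ATP synthase, the citric acid cycle and respiratory complexes I and III. For Cox6a2 they were Epn1 (0.937), Ndufs7 (0.93) and Chchd10 (0.923), for Cox8b Gpx4 (0.921), Slc25a4 (0.896) and Suds3 (0.884), and for Cox4i2 Fdx1 (0.788), Depdc7 (0.765) and Hmgn1 (0.759). Such short lists do not show whether these 5 members vary apart from each other. The gene nearest to the liver form Cox8a was the liver form Cox6a1 (0.891) with all muscles. Without the 2 farthest muscles this r was 0.766, below those of Actn4 (0.84) and Pnpla2 (0.819). In the 11 WT livers the nearest genes of Cox4i1 were Gm16124 (0.878), Taz (0.859) and H2-Ke6 (0.854), and those of Cox7a1 were Nlrc5 (0.911), Lyrm9 (0.897) and Hspb11 (0.869), over 13005 genes. Of these 6 only Taz, for which r was 0.843, stayed above 0.7 without the 2 livers farthest from the median. Other members differed in this. Without 2 livers r was still 0.923 for Uqcr11 with Cox6a1, 0.949 for Ntan1 with Cox7a2l and 0.937 for Rpa3 with Cox6b1. For Cox7a2 it fell to 0.787 for Arhgap10, 0.505 for Fbh1 and 0.696 for Atp5mpl. For Cox8a it fell to 0.771 for Lyl1, 0.752 for Tma7 and 0.687 for Plpp5.

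Promoter sequences from RefSeq (GRCm38.p6, 250 bases before to 50 after the start) were at hand for 7 of the 10 genes, and 3 of them are printed because their genes lie at the ends of the tissue exchange. They are written 5′ to 3′ on the gene's strand. Capitals mark matches on either strand to TATAAA (the TATA box), CCGGAAG (an ETS factor core), CAGCTG (an E-box) or the palindromic NRF1 motif.
Cox8b (chr7:140900397-140900696, minus strand): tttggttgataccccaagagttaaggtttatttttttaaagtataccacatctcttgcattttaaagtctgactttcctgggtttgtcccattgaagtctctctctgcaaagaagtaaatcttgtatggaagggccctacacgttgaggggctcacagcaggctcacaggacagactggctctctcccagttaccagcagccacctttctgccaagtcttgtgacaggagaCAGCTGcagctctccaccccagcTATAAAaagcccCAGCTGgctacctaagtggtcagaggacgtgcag
Cox8a (chr19:7217567-7217866, minus strand): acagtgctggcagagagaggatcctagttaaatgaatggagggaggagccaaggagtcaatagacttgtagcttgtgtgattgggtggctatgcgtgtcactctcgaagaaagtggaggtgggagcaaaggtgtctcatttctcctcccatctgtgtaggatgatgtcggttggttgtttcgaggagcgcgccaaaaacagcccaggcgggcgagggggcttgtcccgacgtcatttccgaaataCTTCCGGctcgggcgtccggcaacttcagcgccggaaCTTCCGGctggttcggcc
Cox6a1 (chr5:115348909-115349208, minus strand): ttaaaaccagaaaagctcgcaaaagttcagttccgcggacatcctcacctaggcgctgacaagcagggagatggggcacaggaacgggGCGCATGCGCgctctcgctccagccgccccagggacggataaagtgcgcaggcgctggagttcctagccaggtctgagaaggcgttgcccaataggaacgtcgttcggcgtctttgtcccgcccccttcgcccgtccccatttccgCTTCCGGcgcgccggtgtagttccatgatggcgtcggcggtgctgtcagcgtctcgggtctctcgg
The Cox8b window held 1 TATAAA and 2 CAGCTG and no more than 2 CpG dinucleotides, while Cox8a held 2 CCGGAAG matches and 19 CpG, and Cox6a1 1 CCGGAAG, 1 NRF1 motif and 32 CpG. Among all 32817 promoter windows 13.6% held TATAAA, 8.86% CCGGAAG, 0.966% the NRF1 motif and 16.3% CAGCTG, and the median window had 7 CpG. Of the remaining 4 genes, Cox6b1 held 1 CCGGAAG with 17 CpG, Cox7a2 and Cox7a2l held no match with 20 and 19 CpG, and the muscle form Cox7a1 held no match with 7 CpG. The MEF2 motif, searched by name on both strands, was in none of the 7 windows and in 3.19% of all. A match is a description of the letters and not a measured binding site.

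Of 9 further structural genes of the enzyme, 6 were measured well enough to be tested. These were Cox5a, Cox5b, Cox6c, Cox7b, Cox7c and Ndufa4, a late-joining subunit once counted to complex I. All 6 were called higher in WT muscle than in WT liver by edgeR, where 45.5% of all genes were called higher and 91.0% in either direction. Their log2 differences ran from 0.4 ± 0.04 for Ndufa4 (adjusted p = 1.4e-09) to 1.13 ± 0.04 for Cox5a (adjusted p = 2.2e-18, SE). Cox5a had 143, 157 and 179 RPKM in the WT livers and 283, 357 and 405 in the WT muscles, with no overlap. Between them were Cox5b at 0.82, Cox6c at 0.63, Cox7b at 0.58 and Cox7c at 0.55. KO against WT, 0 of 6 passed after adjustment in either tissue. In liver 3 passed without adjustment, beside 12.9% of all genes (Cox5a, Cox6c and Ndufa4, at 0.32, 0.3 and 0.31). The count was 5 by DESeq2, 1 by limma-voom and 1 with scaling by library size alone, and 0 without the 5 livers of low slope.

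The other 3 structural genes, Cox6b2, Cox7b2 and Cox8c, encode forms known from testis, and reads of Cox7b2 and Cox8c were found almost entirely in the muscle library labelled KO of mouse 602. Cox8c had 59 reads there, 3 in that of mouse 561 and 0 in each of the other 42 libraries. Cox7b2 had 20 reads in the muscle library of mouse 602 and 0 in mouse 561 and the other 42 libraries, while Cox6b2 had 68 there, 10 in mouse 561 and 218 over the other 42 libraries, all of which held some. Cyct, the testis form of cytochrome c, had 15 reads there and at most 1 in any other library. The library was then looked up for 7 genes known from sperm and spermatids (Prm1, Prm2, Tnp1, Tnp2, Odf1, Akap4 and Ldhc), chosen after these values were seen. They summed to 10828 reads in the muscle of mouse 602, 572 in that of mouse 561 and at most 10 in any other library. Each of the 7 had between 4.09% and 6.92% as many reads in mouse 561 as in mouse 602. Without these 2 libraries the 10 members' median log2 difference in muscle was -0.04, all 10 were still lower in those labelled KO, and Cox6a2 was at -0.2 ± 0.09 (SE, edgeR p = 0.031, adjusted p = 0.87). The Cox6a2 share then differed by -0.187 percentage points (adjusted p = 0.845, permutation test).

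Of 30 genes for assembly, copper delivery and partners of the enzyme, 28 were in the table and 27 were tested. Between the tissues of the WT mice 12 were higher and 13 lower in muscle by edgeR, a share near that of all genes. The 3 with the largest differences were Sco2, a copper chaperone, at -5.54 ± 0.14 (SE, adjusted p = 1e-22), Ndufa4l2 at 1.68 ± 0.09 (adjusted p = 1.4e-15) and Sco1, the related chaperone, at -1.56 ± 0.06 (adjusted p = 2.5e-18). The Sco2 value is uncertain, because the gene overlaps Tymp on the same strand, and Tymp had a median of 3359 reads in WT liver and 2 in WT muscle. KO against WT, 0 of 27 passed after adjustment in either tissue. At an unadjusted p under 0.05, 6 were higher and 1 lower in liver, beside 9.78% of all genes higher and 12.9% in either direction. By limma-voom 1 was higher and 1 lower, and with scaling by library size alone 0 were higher and 2 lower. By edgeR Coa4 at 0.28, Coa3 at 0.29 and Coa5 at -0.15 had the smallest p (0.02, 0.026 and 0.026). Without the 5 livers of low slope, 24 of 27 were lower in KO, where 50.2% of all 13290 genes were higher. In muscle 2 were lower at an unadjusted p under 0.05, beside 4.88% of all genes lower and 8.64% in either direction. These were Coa6, a copper-binding assembly factor, at -0.25 ± 0.08 (SE, edgeR p = 0.0052, adjusted p = 0.49) and Cox14, which acts on the translation of the catalytic subunit 1, at -0.13 ± 0.05 (p = 0.013, adjusted p = 0.51). Higd2a was next at -0.07 (p = 0.09).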

How the data were processed

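The labels gave each library's genotype, tissue and animal number, and liver and muscle with 1 number came from 1 mouse. The authors deposited raw read counts per gene and RPKM values, over 38202 genes, from directional poly(A) libraries with 85-base single-end reads. The aligner, counting program and genome build are not given in the sources used here. Symbols came from a table of identifiers that named 36340 genes. The 10 members and the gene lists were chosen with earlier results of these data known. All members, all structural genes and, of the other list, the 3 genes of smallest p in each tissue and the 3 of largest difference between tissues are named.

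For the counts, edgeR 4.0.16 was run under R 4.3.3. Low genes were removed by filterByExpr, scaling was by TMM, and p-values of the quasi-likelihood test were adjusted over all genes after Benjamini and Hochberg, with a threshold of 0.05. Within-tissue fits used 22 libraries, tissue fits the 22 libraries of 1 genotype, and the interaction all 44. SE is the log2 fold change over the square root of F. Shares came from the RPKM values. Their differences have 95% Welch intervals and permutation p-values, two-sided, from 100000 resamples (numpy 2.4.6). Coding sequences were aligned with Biopython 1.88. On simulated muscle counts for 13189 genes, 94% of 200 genes changed by a log2 fold change of 1 were recovered, 100% of these with the right sign, and 9 others were called. That change is larger than any genotype difference of a member in the within-tissue edgeR fits above. No liver counts were simulated, so the check does not give the power for those differences.

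The 220 pairs of libraries within a group held 0 identical pairs and a chi-square per gene of at least 4.47. As a check of the pairing, deviations from the group means had a mean r of 0.112 within mice and -0.0104 between mice over 10426 genes. Alternatives were DESeq2 1.42.0, limma-voom (limma 3.58.1), scaling by library size, other filters, loess removal of gene length (span 0.3), mouse as replicate block, other forms of the share, and libraries left out. Leaving out muscles for adipocyte markers or testis-type reads was chosen after seeing the data. Counting intervals cover counting error only.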

Additional observations from a re-analysis of the deposited data

How the results depend on the processing

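Every difference in share between the tissues of 1 genotype kept its direction and its call under the alternatives run. The 3 liver calls over all genes became 6 with DESeq2, 1 with at least 10 counts in every library and 1 without the 5 KO livers of low slope. The 1 muscle call became 0 with limma-voom, with no filter beyond 1 read, with at least 10 counts, without the 2 muscles of high adipocyte markers and without those with testis-type reads. The 1 interaction call became 44 with DESeq2, 3 with scaling by library size, 0 with at least 10 counts, 2 without the low-slope livers and 2 without the high-adipocyte muscles. No member was among these calls.

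Without the low-slope livers, KO against WT in liver turned to -0.082 for Cox6a1, -0.11 for Cox7a1, -0.086 for Cox7a2, -0.018 for Cox7a2l, -0.074 for Cox8a and -0.029 for Cox6b1 on the log2 scale. It turned to -0.0045 for Cox5a, -0.084 for Cox5b, -0.037 for Cox6c, -0.04 for Cox7b, -0.09 for Cox7c, -0.04 for Ndufa4, -0.02 for Coa3, -0.23 for Coa6, -0.13 for Cox14, -0.0011 for Higd2a, -0.18 for Ndufa4l2 and -0.089 for Sco2. The interaction turned to 0.044 for Cox6a1, 0.067 for Cox7a1, 0.073 for Cox7a2, 0.043 for Cox8a, 0.0031 for Cox6c, 0.029 for Cox7b, 0.05 for Cox7c, 0.027 for Ndufa4 and 0.16 for Ndufa4l2, and muscle against liver in KO to 0.12 for Cox4i1 and 0.17 for Higd2a. With gene length removed, liver differences turned to -0.051 for Cox7a1, -0.046 for Cox8a, -0.046 for Cox7c, -0.13 for Coa6 and -0.019 for Cox14, and muscle differences to 0.0053 for Cox7a2, 0.007 for Cox5a, 0.00089 for Cox6c, 0.013 for Cox7b, 0.022 for Ndufa4 and -0.018 for Coa5. Scaling by library size gave 0.0042 for Cox7a2, 0.0018 for Cox5a, 0.0057 for Cox7b and 0.0034 for Ndufa4 in muscle, -0.0015 for Coa6 in liver and 0.073 for Higd2a between the tissues of KO mice. With no filter beyond 1 read, Cox7a2l in WT turned to -0.0024 and Coa4 in muscle to -0.0029. Coa4 was -0.017 without the high-adipocyte muscles. Without the muscles with testis-type reads, Cox5a was 0.0014, Cox7b 0.01 and Ndufa4 0.00081. None of the genotype differences listed here had passed the adjusted test.

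Without the high-adipocyte muscles the KO minus WT share in muscle was 0.15 percentage points for Cox6a2 and 0.232 for Cox8b, and its difference between the tissues 0.14 and 0.309. Without the muscles with testis-type reads the last was 0.0219 for Cox8b. As a log2 ratio of the forms with a pseudocount of 1, liver shares gave -0.152 for Cox4i2 and -0.105 for Cox6a2, and the difference between the tissues was 0.101 for Cox4i2, 0.0214 for Cox7a1 and 0.203 for Cox8b, or 0.808 for Cox8b with a pseudocount of 0.1. The cause of these reversals was not tested.

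With mouse as replicate block, Cox7a2l between the tissues of KO mice was -0.23 (edgeR, adjusted p = 0.078), while Cox6c at 0.35 (adjusted p = 0.023) and Cox7c at 0.34 (adjusted p = 0.017) passed. The block changed no other call of the named genes. Depth limits Cox4i2, Cox6a2 and Cox8b in liver, where 5 to 32 reads stand behind a group.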
